A study of Mus musculus with 9 samples.

Results

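The comparison set normal lineage-negative marrow against normal whole marrow, to ask which transcripts lineage depletion of healthy bone marrow enriches and which it removes. It was chosen by the sample titles and covers 6 of the 9 arrays in the series. All 6 hold femoral bone marrow RNA of wild type C57BL6 mice. The whole marrow group is 3 arrays of 1 mouse each, with the marrow taken straight to RNA. The lineage-negative group is 3 arrays that each hold a pool of 3 mice, whose marrow first passed through a Miltenyi lineage depletion kit. The remaining 3 arrays, from transgenic ERG mice with leukemia, are not part of the difference. They entered the estimate of the spread, the choice of probe set for a gene and the cut-offs for dim signal. Age, sex and the date of hybridisation are not in the labels, so a processing batch and the group cannot be told apart.

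Blood cells arise from rare stem cells through progenitors that gradually commit to a lineage. As they mature they gain surface proteins such as CD11b and Gr-1 on myeloid cells, B220 on B cells and CD5 on T cells. Lineage depletion tags cells bearing such proteins with antibodies and holds them back on a magnet, so that the flow-through keeps stem cells, progenitors and any mature cell type the antibodies do not bind. The antibodies of the kit are not listed in the labels. Every value below is an RNA level of a bulk sample, in which fewer cells of a type and less RNA per cell cannot be told apart.

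Losses in lineage-negative marrow reached further than gains. By limma, 4328 of 19938 genes (21.7%) were higher and 2587 (13%) were lower in lineage-negative marrow at an adjusted p of 0.05, and together they made up 34.7% of the genes. Among the genes that were lower, 373 had fallen at least 4-fold and 156 at least 8-fold. Among those that were higher, 74 had risen at least 4-fold and 0 at least 8-fold. A log2 size of at least 1 together with the threshold left 1201 genes higher (6.02%) and 1081 lower (5.42%), and 42.9% of genes had an unadjusted p under 0.05. For 26.6% of genes every pool exceeded every whole marrow array, and for 23.4% every pool was below. Of all calls 62.6% were higher in the deposited scaling, 44.7% after centring each array on its 75th percentile and 47.7% after cyclic loess, so the balance of small changes rests on the scaling. Centring on the 75th percentile also moved the median log2 difference of all genes from -0.035 to -0.194.

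The arrays were alike within groups and far apart between them. Across genes, arrays of the same group correlated at r between 0.978 and 0.995, and arrays of different groups at 0.881 to 0.931. The first principal component of the 6 arrays held 84.6% of the variance and placed whole marrow at -55.3 to -44.7 and the pools at 42.4 to 62.2. The second held 7.2% and set whole marrow array 2, at -28.2, apart from arrays 1 and 3, at 10.1 and 19.8. That array also differed in sex-linked RNA. Xist, which silences an X chromosome in females, read 19.9 there against 2067.7 and 2206.6 in whole marrow arrays 1 and 3, while the Y-linked gene Uty read 170.6 against 17.7 and 18.6. The pools carried both, with Xist at 1040.9, 445.2 and 1073.0 and Uty at 198.4, 205.0 and 171.7. Over all probe sets the median was 33.4, with values down to 9.51. It serves here as a mark of dim signal and is not a measured background. "Background" below means signal near or under this mark. Where a gene's lower group mean lies under it, the true fold may be larger.

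**Figure D1:**
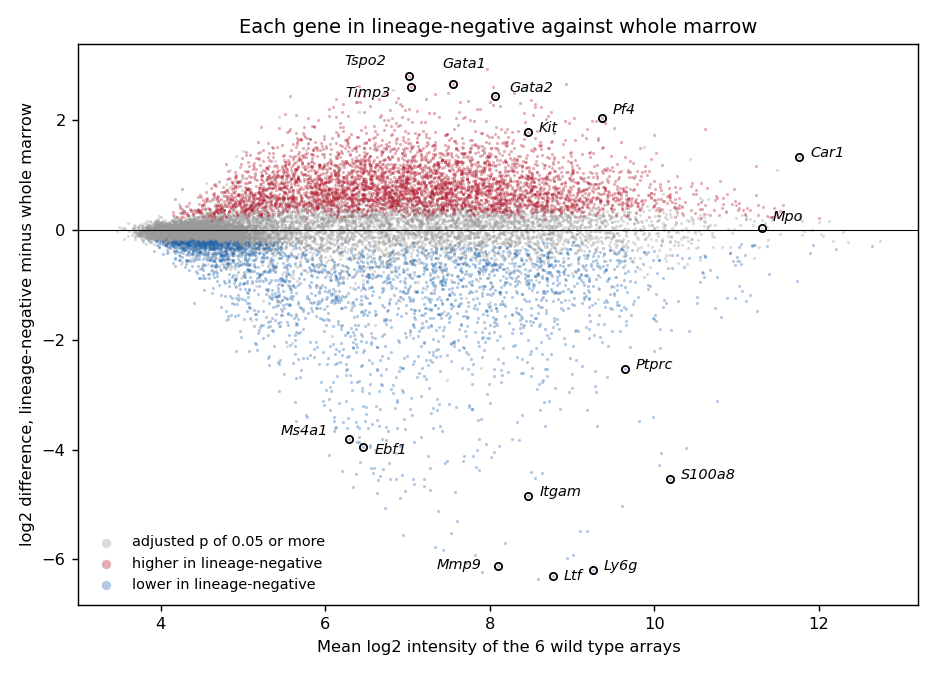
Each point is 1 of 19938 genes, with the mean log2 intensity of the 6 wild type arrays on the x axis and the log2 difference of lineage-negative minus whole marrow on the y axis. Red genes were higher and blue genes lower at an adjusted p of 0.05, and circles mark named genes. The downward cloud reaches to -6.36 and the upward one to 2.91.

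The 12 highest under the naming rule were Atp1b2 (7.54-fold), Tspo2, Ces2g, Gata1, Clca3a1, Timp3, F2rl2, Mfsd2b, Hormad1, Septin8, Nipa1 and Alox12 (5.53-fold). Gata1, Mfsd2b and Tspo2 stand in the red cell lists below, Timp3, F2rl2 and Alox12 in the platelet list, and Clca3a1 in the stem cell list. Atp1b2, a beta subunit of the sodium pump, rose from a group mean intensity of 91.4 to 689.1 (log2 difference 2.91 ± 0.36 SE, adjusted p = 0.000392). Hormad1, a meiotic chromosome protein gene, rose from 35.9 to 201.0, with an SE of only 0.11 on a log2 difference of 2.49. The 12 lowest were Chil3, Ltf, Slfn4, Ly6g, Mmp9, Il1f9, Mmp8, Chil1, Camp, Lrg1, Olfm4 and Cd177. Of these, Chil3, Ltf, Chil1, Camp and Cd177 are in the secondary granule list and Mmp8 and Mmp9 in the late neutrophil list. Each fell at least 52.1-fold, from group means of 1204.4 to 5232.5 down to 21.9 to 71.2.

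Genes of lineage antigens came first as a check of the labels, though which of them the kit's antibodies bind is not given. Of 12 genes listed for lineage antigens, 8 were analysed here, and all 8 fell, with non-overlapping arrays in every case. The median log2 difference of the 8 was -1.97, against -0.035 over all genes tested. Ly6g, the main Gr-1 antigen of neutrophils, read 4839.6, 5907.4 and 5011.0 in whole marrow arrays 1 to 3. In pools 1 to 3 it read 186.2, 30.8 and 63.1, so pool 1 kept the most and pool 2 was at background. Itgam, which encodes CD11b, fell from between 1624.2 and 2129.2 to 100.5, 44.7 and 64.6 (-4.85 ± 0.33, adjusted p = 5.63e-05). Ptprc encodes CD45, of which B220 is an isoform, and it is carried by nearly all blood cells except red cells and their late precursors. It fell 5.76-fold, from 2080.0, 1771.7 and 1916.9 to 463.9, 229.0 and 347.6. Cd79a of the B cell receptor fell by 2.97, Cd3e of the T cell receptor by 1.41 and Cd4 by 1.08. Cd5 was already dim in whole marrow, with a group mean of 30.9, and fell by 0.65 to 19.7.

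Neutrophil genes split by the stage at which they are made. Promyelocytes make primary granules, myelocytes secondary granules, and later cells tertiary granules and the receptors of mature neutrophils. Several primary granule genes overlapped between the groups, while every secondary granule gene and nearly every late gene fell. Mpo, the peroxidase of primary granules, read 2627.5, 2772.7 and 2164.5 in whole marrow and 2895.9, 2129.2 and 2708.8 in the pools. These ranges overlap (0.03 ± 0.22, adjusted p = 0.939). Ctsg, the cathepsin G gene, gave -0.12 ± 0.32 and Prtn3, the proteinase 3 gene, -0.52 ± 0.43, and both also overlapped. Elane, neutrophil elastase, lay lower in every pool, at 2122.8, 1285.3 and 1744.7 against 2134.4 to 2745.5, but did not pass (-0.57 ± 0.27, adjusted p = 0.137). It passed without leukemia 2 (adjusted p = 0.0419). Of 14 primary granule genes 5 fell, 1 rose and 8 did not pass, with a median of -0.48. The members that fell were led by Fcnb, a ficolin gene (-4.37 ± 0.44), Serpinb1a, an inhibitor of neutrophil proteases (-1.92 ± 0.40), and Hdc, the histamine-forming enzyme (-1.83 ± 0.35). The member that rose, the endoplasmic reticulum chaperone gene Calr, gave 0.50 ± 0.15. Its call was lost without pool 1 or 3 or whole marrow array 1 or 3 (0.39 to 0.52) and under both 75th percentile centring and cyclic loess. The count of 5 was 3 without whole marrow array 1 or 3 or without pool 2 or 3.

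All 17 secondary granule genes fell, with a median log2 difference of -4.06, and no array of one group reached into the other. Ltf, lactoferrin, read 4329.8, 4043.5 and 3281.9 in whole marrow and 76.4, 28.9 and 53.3 in the pools (-6.30 ± 0.39, adjusted p = 4.61e-05). Camp, the cathelicidin gene, fell from between 3455.0 and 4383.2 to 86.1, 46.5 and 74.6. Ngp and Lcn2 kept more signal. Lcn2, lipocalin 2, read 521.0, 152.9 and 487.1 in the pools, 15.6-fold below whole marrow, and Ngp was 19.5-fold lower. In the tertiary granule and mature neutrophil list 21 of 22 members fell, with a median of -4.05. The collagenase gene Mmp8 fell 62.6-fold and the gelatinase gene Mmp9 69.1-fold, from 2791.3, 2092.0 and 2035.7 to 53.3, 21.1 and 32.1. S100a8, a calcium-binding alarmin that is among the most abundant neutrophil RNAs, read 5419.6 to 5814.1 in whole marrow and 343.0, 122.2 and 347.3 in the pools. Cxcr2, the chemokine receptor that draws neutrophils out of the marrow, fell 21.5-fold, and Csf3r, through which granulocyte colony-stimulating factor acts, 11.8-fold. The 1 member that did not pass was Slpi (-0.79).

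Genes of the myeloid progenitor list, which holds transcription factors and other genes, fell or did not pass. Of 14 members 6 fell, 0 rose and 8 did not pass, with a median of -0.72. Cebpa, which starts granulocyte commitment, read 115.6, 73.9 and 76.1 in whole marrow and 164.6, 62.0 and 110.4 in the pools, with overlap and no call (adjusted p = 0.643). Cebpe, which drives the step to secondary granules, fell 5.74-fold (-2.52 ± 0.36, adjusted p = 0.000805). Spi1, which encodes PU.1, fell from 1377.5, 1494.7 and 1195.0 to 515.8, 255.0 and 405.8 (-1.84 ± 0.40). Gfi1 (-0.80 ± 0.33) and Irf8 (-0.52 ± 0.34), which favour granulocytes and monocytes respectively, overlapped between groups and did not pass, though Gfi1 did without pool 1 (-1.04). Fcgr3, an Fc receptor gene, fell most in this list, by 2.67.

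Short promoter stretches of late neutrophil genes are shown because the letters GGAAGT, a core that ETS factors such as PU.1 bind, stood in more of its windows than in those of all genes tested. RefSeq promoter windows on GRCm38.p6, from 250 bases before to 50 bases after a gene's start, were found for 19 of the 22 genes. On either strand, 68.4% of the 19 windows held GGAAGT, against 24.8% of the 19177 windows of all genes tested. For secondary granule genes the share was 37.5% of 16 windows and for primary granule genes 62.5% of 16. It was 77.8% of 9 lineage antigen windows and 57.1% of 7 eosinophil windows, so the letters were not particular to late neutrophil genes. The letters TTGCNNAA, the outline of a C/EBP site, were in 31.6% of late neutrophil windows and in 9.8% of all. A match describes letters only and is not a measured binding site. The stretches belong to the most strongly lowered members whose 250 bases before the start hold GGAAGT on either strand, in capitals, and run 5′ to 3′ on the gene's strand.
Mmp8, chr9:7558179-7558248, plus strand: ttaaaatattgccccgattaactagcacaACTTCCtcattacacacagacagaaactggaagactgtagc
Ifitm6, chr7:141016893-141016939, minus strand: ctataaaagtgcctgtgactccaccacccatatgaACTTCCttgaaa

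Monocyte and macrophage genes were mostly lower. Of 20 monocyte genes 15 fell and 0 rose (median -1.56), and of 21 macrophage genes 16 fell and 0 rose (median -1.25). Treml4, a receptor of nonclassical monocytes and some macrophages, fell from 291.2, 221.8 and 190.6 to background at 19.7 to 21.9. Lyz2, the lysozyme gene of myeloid cells, fell from between 4840.8 and 5610.0 to 1022.7, 294.3 and 670.7, and Fn1, fibronectin, fell 7.41-fold. Cx3cr1, a receptor of nonclassical monocytes and dendritic precursors, overlapped at 88.9 to 135.5 against 95.0 to 111.8. Ccr2, which lets monocytes leave the marrow, changed by -1.73 ± 0.49 and Csf1r, the growth factor receptor of the lineage, by -1.17 ± 0.38. Neither call held without whole marrow array 2 (-1.38 for Ccr2 and -1.04 for Csf1r) or without pool 2 or 3, and that of Csf1r also without whole marrow array 1 or 3 or leukemia 3. Over those losses Csf1r ran from -1.29 to -0.90 and Ccr2 from -1.79 to -1.38. Among macrophage genes the heme oxygenase gene Hmox1 went from 261.2, 226.6 and 191.5 to 20.3 to 22.1 (-3.41 ± 0.18). The complement gene C1qb fell by 3.19, and Vcam1, the adhesion molecule of erythroblast island macrophages, by 2.52. Adgre1, which encodes F4/80, fell from 139.0, 203.4 and 127.8 to 40.8, 24.9 and 31.8. Leaving out whole marrow array 2 or pool 2 ended its call, at -2.07 and -2.09. C1qa and Spic were lost in 5 and 7 of the 9 fits that leave 1 array out, at -1.47 to -1.36 and -1.18 to -0.97.

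Dendritic cell genes were mixed. Of 19 measured, 8 fell, 2 rose and 9 did not pass, with a median of -0.52. Siglech, a receptor of plasmacytoid dendritic cells, fell from 277.2, 170.6 and 529.5 to 75.1, 39.4 and 44.9, and Klra17 fell 20.1-fold. Zbtb46, a transcription factor of classical dendritic cells that red cell precursors also express, rose from 28.4 to 31.2 up to 40.9 to 51.9 (0.66 ± 0.11). Flt3, a receptor shared by dendritic and early lymphoid progenitors, rose 2.08-fold. The count of 8 was 5 without whole marrow array 3 or without pool 2 or 3. Of 10 genes for antigen presentation by MHC class II 7 fell and 0 rose. Cd74, the invariant chain, fell 5.12-fold and H2-Aa 7.93-fold, from 1012.9, 527.8 and 653.5 to 153.7, 58.0 and 78.6. Ciita, the switch of the class II genes, fell to background at 19.1 to 20.8. H2-Ab1 fell from 688.2, 320.3 and 278.6 to 65.8 to 100.5, and leaving out whole marrow array 1 ended its call (-1.88), as did leaving out pool 2 (-2.12).

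Most pro-B, pre-B and mature B cell genes fell. Of 24 pro-B and pre-B genes 14 fell and 1 rose (median -2.04), and of 21 mature B genes 16 fell and 0 rose (median -1.80). Ebf1, the factor that sets B cell identity, read 378.4, 132.9 and 831.2 in whole marrow and 28.0, 20.3 and 19.8 in the pools (-3.95 ± 0.54, adjusted p = 0.000687). Whole marrow array 2 was the lowest of its group, yet lay above every pool. Pax5 fell from 185.1, 83.8 and 370.9 to 23.3 to 25.5. Igll1, of the pre-B cell receptor, kept 63.0, 40.1 and 30.5 in the pools, against 148.1 to 577.0 in whole marrow. Bst1, an enzyme on the surface of stromal, early B and myeloid cells, fell most in the list, from between 381.0 and 725.5 to between 17.4 and 21.3. Among mature B genes Ms4a1, which encodes CD20, read 407.9, 96.3 and 628.2 in whole marrow and 17.4 to 23.5 in the pools. Bank1 fell 13.7-fold, the transcription factor gene Spib 12.6-fold and Cd22 4.70-fold. The exception, Tcf3, which encodes the E2A factors and is not restricted to B cells, gave 0.92 ± 0.26. Its call was lost without pool 2 or 3 or whole marrow array 1 or 2, at 0.65 to 0.95, and after cyclic loess.

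Genes of lymphoid priming and antigen receptor recombination went both ways. Of 15 measured, 7 fell, 2 rose and 6 did not pass, with a median of -0.87. Rag1, a recombinase subunit, fell from 83.0, 49.1 and 317.2 to 21.9 to 24.2, and Ikzf3, the factor Aiolos, fell 5.77-fold. Dntt, the terminal transferase of early lymphoid progenitors, overlapped at 40.5 to 84.2 against 62.4 to 82.7 (0.15 ± 0.25). Il7r, the interleukin 7 receptor, also overlapped at 155.4 to 654.0 against 150.9 to 251.1, and fell by 1.44 without whole marrow array 2. Flt3 and Cd27 were higher, from 93.0 to 124.2 up to 153.6 to 324.1 for Flt3 and by 1.20 ± 0.34 for Cd27. Each lost its call in 4 of the 9 fits that leave out 1 array (0.79 to 1.06 and 0.88 to 1.17) and after cyclic loess (0.72 and 0.93).

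T cell genes fell from a low base, and genes of NK and plasma cells passed no more often than all genes. Over all genes 34.7% passed, with 21.7% higher and 13% lower. Of 22 T cell genes 13 fell and 3 rose, with a median of -0.49, and both group means of 6 were below the median intensity. Cd3e read 113.7, 132.6 and 146.2 in whole marrow and 64.2, 41.1 and 44.7 in the pools (-1.41 ± 0.24). Cd3d read 27.4, 131.2 and 105.4 in whole marrow, so array 1 lay near the pools at 15.5 to 18.6. The members that rose, Prkcq, Lat and Gata3, are also known outside T cells, and Prkcq read 103.1, 55.4 and 89.8 in whole marrow and 231.0, 258.1 and 232.9 in the pools. The call of Lat was lost without pool 1 or 3 or whole marrow array 1 or 3 (1.19 to 1.22), and that of Gata3 without leukemia 3 or any 1 wild type array (1.06 to 1.27). Of 20 NK and cytotoxic genes 3 fell, 2 rose and 15 did not pass. Ncr1, a receptor of NK cells, overlapped at 49.4 to 119.3 against 61.0 to 86.1. The count of 3 ran from 1 to 10 when 1 array was left out, with 10 without whole marrow array 2 and 1 without whole marrow array 1 or 3 or pool 2 or 3. Of 15 plasma cell genes 3 fell and 1 rose, while Jchain, the antibody joining chain, overlapped at 602.0 to 1060.9 against 445.4 to 889.2. Without pool 2 the plasma cell count was 1.

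Most of the stem and progenitor genes rose, while Mecom and Procr stayed near background. Of 35 blood stem cell genes 20 rose, 1 fell and 14 did not pass, with a median of 0.87. Over all genes 21.7% were higher and 13% lower. Both group means of 10 of the 35 were below the median intensity, and Vwf and Angpt1 are also in the platelet list. Of 27 multipotent progenitor genes 16 rose, 3 fell and 8 did not pass, with a median of 0.69. Kit, the stem cell factor receptor that defines early progenitors, read 202.5, 167.5 and 204.9 in whole marrow and 708.3, 565.6 and 696.8 in the pools, a rise of 3.42-fold (1.78 ± 0.12, adjusted p = 5.17e-05). Cd34 rose 2.85-fold, from 221.6 to 255.2 up to 869.3, 464.7 and 722.7. Myc rose from 563.9 to 569.5 up to 1813.8 to 1879.0. Meis1, a homeobox partner of the Hox proteins, read 55.6, 46.8 and 65.4 in whole marrow and 270.1, 141.1 and 231.9 in the pools. Gata2 rose 5.37-fold, from 146.8, 94.3 and 112.0 to 625.4, 506.8 and 758.8, and Slamf1, which encodes CD150, 3.67-fold. The endoglin gene Eng rose 5.04-fold. Cdk6 rose by 1.17 ± 0.16 and Myb by 0.62 ± 0.14.

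Other stem cell genes did not separate the groups. Mecom, a stem cell factor, read 20.5 to 27.8 in whole marrow and 21.0 to 23.8 in the pools, all below the median intensity, and Procr, a surface receptor of the most primitive cells, 22.9 to 23.6 against 21.0 to 25.7. At this signal no difference could be read for either gene. Hlf read 52.0, 40.9 and 47.9 against 100.6, 51.6 and 68.8, touching between groups (0.60 ± 0.21, adjusted p = 0.0562). Hoxa9 overlapped because pool 2 read 27.9 while pools 1 and 3 read 66.9 and 44.7. Without pool 2 both Hlf (0.83) and Hoxa9 (0.78) passed. Prom1, which encodes CD133, went the other way, from 214.4, 295.6 and 135.5 to 44.5, 30.6 and 36.9 (-2.47 ± 0.39). Cd53, a tetraspanin of all white cells, fell 3.01-fold. Lyl1 changed by -0.28 and Hoxb4 by -0.41, and these calls were lost in 6 and 3 of the fits that leave out 1 array (-0.30 to -0.23 and -0.39 to -0.32). Sox4 overlapped, with whole marrow array 3 at 119.7 and the pools at 81.4 to 118.7, and passed without that array (0.94).

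**Figure D2:**
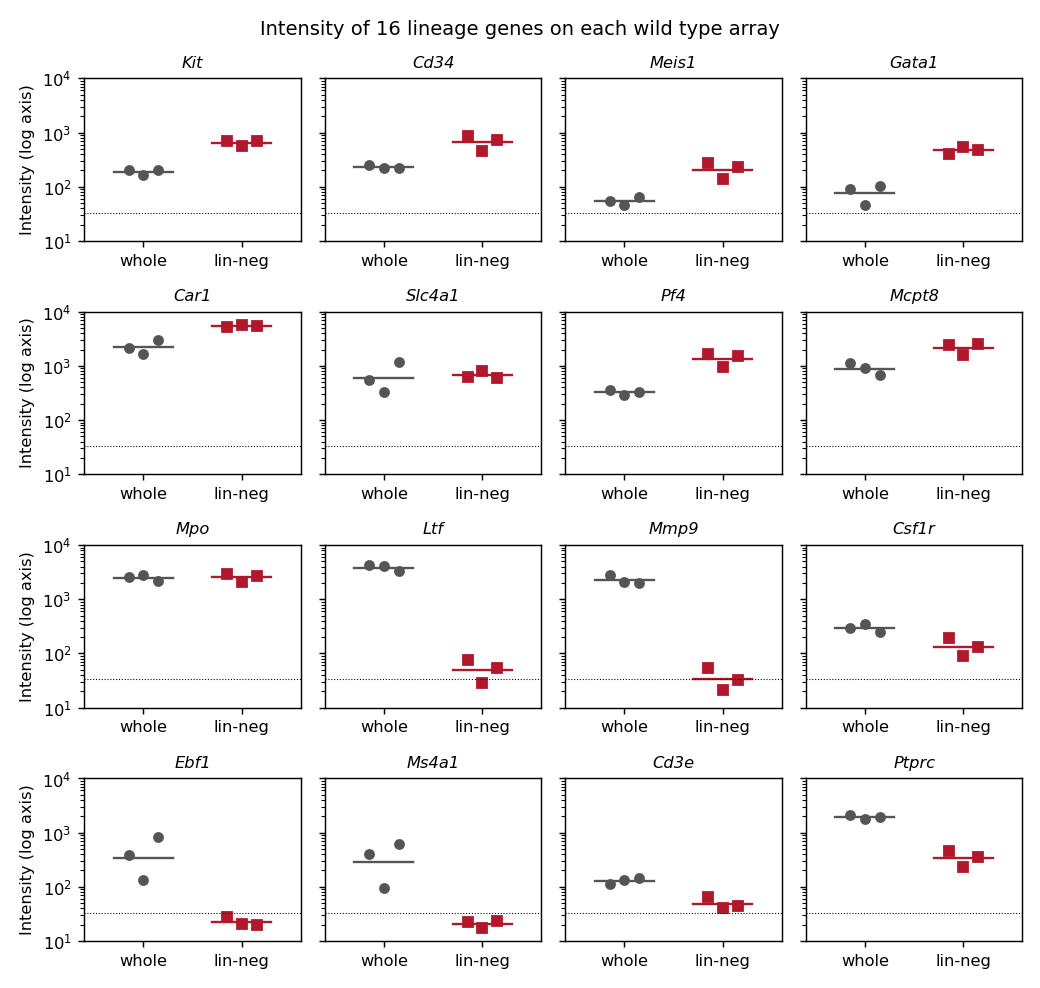
Intensity on a log axis of 16 lineage genes on the 3 whole marrow arrays (grey circles) and 3 lineage-negative pools (red squares), with the mean of log2 values as a bar and the median intensity of all probe sets, 33.4, as a dotted line. Kit, Gata1 and Pf4 are higher in every pool, Mpo and Slc4a1 overlap, and Ltf, Mmp9, Ebf1 and Ms4a1 drop to or near the dotted line.

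Megakaryocyte and platelet genes were mostly higher. Of 27 measured, 20 rose, 1 fell and 6 did not pass, with a median of 1.68. Gp9, part of the platelet receptor for von Willebrand factor, read 193.1, 164.5 and 166.1 in whole marrow and 989.5, 601.3 and 891.0 in the pools, 4.65-fold higher (2.22 ± 0.23, adjusted p = 0.00018). Timp3, an inhibitor of metalloproteinases, rose 6.06-fold, from 48.9 to 61.3 up to 408.0, 236.0 and 354.8. The thrombin receptor gene F2rl2 rose 6.02-fold and the platelet lipoxygenase gene Alox12 5.53-fold. Pool 2 was the lowest pool for each of these genes and still above every whole marrow array. Pf4, platelet factor 4, read 361.4, 294.9 and 327.0 against 1629.5, 940.4 and 1547.8 (2.03 ± 0.57, adjusted p = 0.0232). Its call was lost without pool 1 or 3 or any 1 whole marrow array, at 1.88 to 2.10, and after cyclic loess (1.80). Itga2b, the alpha IIb integrin, rose by 1.83 ± 0.47, a call lost without pool 1 or 3 (1.69 each). Ppbp, a platelet chemokine, lay higher in every pool, at 3256.5 to 5180.7 against 1549.1 to 2450.8, but did not pass (1.09 ± 0.51, adjusted p = 0.139). It passed at the same difference without leukemia 1 (adjusted p = 0.00489) and with the 6 wild type arrays alone (0.0064). The 1 member that fell was Cd9, a tetraspanin of many cell types (-0.78 ± 0.26), and its call failed without whole marrow array 1 or 2, pool 2 or 3 or leukemia 2 or 3 (-0.91 to -0.49). Where dim values were raised to the median intensity, 13 members rose.

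Early red cell genes were higher with few exceptions. Of 25 genes of erythroid progenitors and early erythroblasts 21 rose, 0 fell and 4 did not pass, with a median of 1.70. Gata1, the master regulator of red cell and platelet genes, read 90.8, 45.9 and 101.6 in whole marrow and 409.4, 531.1 and 469.2 in the pools, 6.22-fold higher (2.64 ± 0.45, adjusted p = 0.00196). Epor, the erythropoietin receptor, rose 4.32-fold and Klf1, the factor that turns on globin genes, 3.17-fold. Mfsd2b, a lipid transporter of red cells and platelets, rose 5.64-fold, with 105.3 to 165.4 in whole marrow against 679.5 to 804.6 in the pools. Car1, carbonic anhydrase 1, was bright in both groups and rose from 2151.4, 1634.4 and 3034.5 to 5345.3, 5599.9 and 5455.3. Tfrc, the transferrin receptor, did not pass, since whole marrow array 3 at 800.2 was close to pools 1 and 3 at 855.6 and 807.6 (0.93 ± 0.34, adjusted p = 0.065). It passed without that array (1.27).

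Late erythroblast genes divided. Of 22 measured, 10 rose, 1 fell and 11 did not pass, with a median of 0.79. Tspo2, a membrane protein of maturing erythroblasts, rose 6.97-fold, from 58.5, 37.7 and 53.7 to 275.0, 367.4 and 397.2. Rhag, of the Rh complex, rose by 1.97 ± 0.39 and the red cell claudin gene Cldn13 by 2.06 ± 0.40. Slc4a1, the band 3 anion exchanger of the red cell membrane, read 538.6, 335.3 and 1196.8 in whole marrow and 612.6, 804.4 and 601.7 in the pools, and the groups overlapped (0.15 ± 0.57). Epb42, a band 3 partner, gave 0.88 ± 0.45 and Alas2, the first enzyme of red cell heme synthesis, -0.33 ± 0.53, both with overlap. For each of Slc4a1, Epb42 and Alas2 whole marrow array 3 was the highest and array 2 the lowest of its group, and Epb42 passed without array 3 (1.42). Bnip3l, which clears mitochondria from maturing red cells, changed by -0.30 ± 0.08, and its call was lost without pool 1 (-0.27) or whole marrow array 1 (-0.29). Of 13 heme synthesis genes 9 rose and 0 fell, with a median of 1.02. Cpox, the coproporphyrinogen oxidase gene, rose 4.22-fold, from 139.3 to 222.8 up to 573.9, 1050.3 and 730.0, and Urod 2.06-fold. Alad and Fech (1.6 ± 0.45 and 1.02 ± 0.31) lost their calls without any 1 pool, at 1.5 to 1.66 and 0.86 to 1.11, and Fech also without whole marrow array 1 or 2 (0.94 and 0.79) and after cyclic loess (0.71).

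Promoter stretches of Epor and F2rl2 are shown because the letters AGATAA, a core of GATA sites, stand in both. Windows were found for 22 of the 25 early red cell genes, and 20.7% of their 29 windows held AGATAA on either strand, against 9.2% of the windows of all genes tested. The share was 23.5% of 17 late erythroblast windows and 23.8% of 21 megakaryocyte windows. Shares as high stood in lists of other cells, with 42.9% of 7 eosinophil, 37.5% of 8 MHC class II, 25.0% of 16 secondary granule, 23.1% of 26 basophil and 20.0% of 20 interferon target windows. In blood stem cell genes the share was 7.9% of 38 windows. The motif begins 54 bases before the start of Epor and 95 bases before that of F2rl2, and is in capitals.
Epor, chr9:21963590-21963665, minus strand: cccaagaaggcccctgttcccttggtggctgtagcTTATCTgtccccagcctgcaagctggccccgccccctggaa
F2rl2, chr13:95696790-95696865, plus strand: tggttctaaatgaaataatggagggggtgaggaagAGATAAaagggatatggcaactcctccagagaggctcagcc

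Among basophil and mast cell genes more rose than fell, and most did not pass, which was also so over all genes. Of 23 measured, 9 rose, 2 fell and 12 did not pass, with a median of 0.45. Over all genes 21.7% were higher and 13% lower. Both group means of 5 of the 23 were below the median intensity. Fcer1a and Ms4a2, subunits of the IgE receptor, rose by 1.54 ± 0.34 and 1.53 ± 0.28. Slc18a2, which loads amines into granules, rose 3.45-fold, from 71.6, 61.4 and 69.9 to 284.3, 154.4 and 288.6. Mcpt8, the basophil protease, lay higher in every pool, at 2458.4, 1581.6 and 2581.9 against 685.6 to 1111.5, but its adjusted p was 0.0681 (1.29 ± 0.48). Cpa3, mast cell carboxypeptidase, gave 1.5 ± 0.63 (adjusted p = 0.102), also without overlap. Both passed without leukemia 1 or 2, and with the 6 wild type arrays alone (adjusted p = 0.00463 for Mcpt8 and 0.00504 for Cpa3), at the same differences. Prss34, another basophil protease, rose by 1.48 ± 0.39, a call lost without pool 1 or 3 or whole marrow array 2 or 3 (1.31 to 1.46). Hdc, which basophils share with neutrophil precursors, fell as given above. Among 9 eosinophil genes Epx, eosinophil peroxidase, rose 3.02-fold, from 241.3, 128.2 and 148.1 to 503.9, 331.9 and 756.8. Ccr3, the eotaxin receptor of mature eosinophils, fell from 51.2 to 74.4 down to 24.6 to 28.4. Il5ra and Prg2 overlapped between groups, and Prg2 passed without pool 2 (1.02). Without whole marrow array 1 or pool 2 the number of eosinophil genes that rose was 3 in place of 1.

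**Figure D3:**
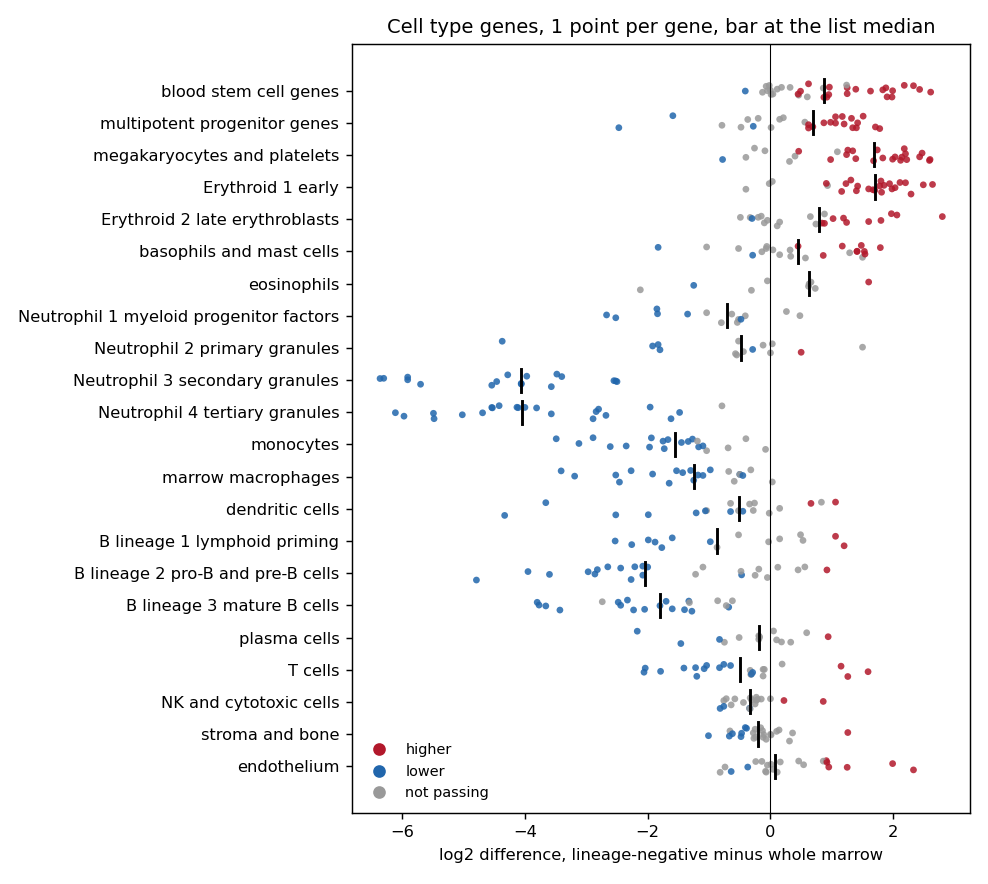
Log2 difference of lineage-negative minus whole marrow on the x axis for the genes of 22 cell type lists, 1 point per gene, coloured by call at an adjusted p of 0.05, with a bar at each list's median. Red cell and platelet lists lie to the right with medians up to 1.70, and secondary granule and late neutrophil lists to the left with medians of -4.06 and -4.05.

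Many genes of cells that are not blood cells were dim. Of 24 stroma and bone genes 7 fell and 1 rose, and both group means of 14 were below the median intensity. Cxcl12, the chemokine that holds stem cells in the marrow, fell from 72.6, 62.5 and 55.1 to 33.2, 32.0 and 28.7. Pdgfrb, a receptor of perivascular cells, rose from 22.4 to 28.8 up to 81.6, 44.6 and 63.9. Leaving out any 1 pool took the stroma count from 7 to 4. Of 22 endothelial genes 6 rose and 2 fell, with a median of 0.08 that turned to -0.08 under 75th percentile centring. These counts lie near the shares over all genes, of which 21.7% were higher and 13% lower. Those that rose most, Eng, Vwf and Esam, are also in the blood stem cell list, while Cdh5, the defining cadherin of endothelium, changed by -0.64 ± 0.12 and lay below the median intensity on all 6 arrays. None of 11 skeletal muscle and fat genes passed by limma. Acta1, skeletal actin, read 47.6 to 58.8 in whole marrow, and the pools overlapped with it (-0.15 ± 0.1).

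Cytokine receptors were lower more often than higher. Of 25 measured, 12 fell and 3 rose, namely Epor, Kit and Flt3. Il1r2, a decoy receptor of neutrophils, fell from 485.7, 495.8 and 283.7 to 15.7 to 16.1, the largest fall in the list (-4.69 ± 0.35). Csf2ra, a subunit of the receptor for granulocyte-macrophage colony-stimulating factor, fell 3.34-fold.

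Ribosome production and DNA replication genes rose almost without exception. All 36 ribosome biogenesis genes rose, with a median of 1.46, also when any 1 array was left out. Rrp9, a processing factor of ribosomal RNA, rose 3.67-fold, from 45.0, 52.6 and 53.5 to 133.2, 251.1 and 188.2. Fbl, the methyltransferase fibrillarin, rose by 1.22 ± 0.13, and Npm1, nucleophosmin, by 0.84 ± 0.12. Of 37 DNA replication genes 36 rose and 0 fell, with a median of 0.89. Mcm2, of the replicative helicase, read 408.1, 482.7 and 562.3 in whole marrow and 942.7, 1134.0 and 1007.5 in the pools (1.09 ± 0.14). Orc1, of the origin recognition complex, rose most, by 1.49 ± 0.27, and pool 2 was the highest array for it and for Mcm2, Rrp9 and Cpox. Rrm2, of ribonucleotide reductase, was the member that did not pass, with whole marrow array 3 at 737.2 above pool 3 at 619.9, and passed without that array (0.46).

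How many mitotic genes passed depended on the scaling. With the deposited values 20 of 34 rose and 1 fell, with a median of 0.38. The count was 5 with 75th percentile centring, 3 after cyclic loess and 11 after quantile normalization, and it was 13 without whole marrow array 1 or pool 2. Of all 19938 genes 3143, 3030 and 3999 were higher under those scalings, in that order. With 75th percentile centring and cyclic loess the mitotic share was thus no higher than the share over all genes. Nek2, a centrosome kinase, rose by 0.94 ± 0.11, from 103.1 to 128.4 up to 205.6 to 253.4. Top2a, the mitotic topoisomerase, overlapped at 897.5 to 1074.1 against 1017.0 to 1066.4, and Cdk1 gave 0.19 ± 0.10 with no call. Aurkb (0.45 ± 0.09) and Plk1 (0.53 ± 0.12) lost their calls under 75th percentile centring and cyclic loess. The fall of Kif23 (-0.27) was lost without any 1 wild type array or leukemia 1, at -0.31 to -0.24.

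The promoters of replication and mitotic genes differed in their letters. TTCCCGC, a form of the E2F site, was in 38.9% of 36 replication windows and in 0% of 30 mitotic windows, against 6.4% of the windows of all genes tested. TTTGGCG, another E2F form, was in 27.8% and 0%, against 2%. The cell cycle homology element TTTGAA was in 80% of mitotic windows and 13.9% of replication windows, against 14.8% of all. CCAAT, the letters of the NFY box, was in 80% of mitotic and 52.8% of replication windows, against 37.4%. Stretches for print were chosen with the genes of a single chromosome left out. Below stand the members with the largest log2 difference, among the remaining genes that passed and held the letters in the 250 bases before the start. They carry an E2F form in capitals in Chaf1b and Prim1, which rose by 1.09 and 0.97, and TTTGAA on either strand in Cdc20 and Kif2c, which rose by 0.59 and 0.46. Cdc20 lost its call under 75th percentile centring (0.43) and cyclic loess (0.28).
Chaf1b, chr16:93883651-93883715, plus strand: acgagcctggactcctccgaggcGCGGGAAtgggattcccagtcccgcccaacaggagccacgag
Prim1, chr10:128015165-128015214, plus strand: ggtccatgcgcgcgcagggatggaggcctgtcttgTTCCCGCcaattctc
Cdc20, chr4:118437344-118437396, minus strand: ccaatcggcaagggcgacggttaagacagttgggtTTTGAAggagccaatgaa
Kif2c, chr4:117178835-117178910, minus strand: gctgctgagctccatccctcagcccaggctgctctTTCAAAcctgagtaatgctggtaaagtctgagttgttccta

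Oxidative phosphorylation genes were mostly higher and glycolysis genes more often lower. Of 31 oxidative phosphorylation genes 20 rose and 0 fell, with a median of 0.49, and 11 rose after cyclic loess. Ndufv1, of respiratory complex I, rose from 290.0, 288.5 and 303.5 to 586.1, 652.0 and 566.8. Of 20 glycolysis genes 9 fell and 3 rose, with a median of -0.42. Pfkfb4, a regulator of glycolytic flux, fell 7.91-fold, the lactate exporter gene Slc16a3 6.36-fold and the blood cell hexokinase gene Hk3 by 2.22 ± 0.34. Pkm, pyruvate kinase, fell 3.02-fold. Against these, the muscle-type phosphofructokinase gene Pfkm rose from 68.2, 54.7 and 81.0 to 215.6, 344.4 and 239.1, and Pfkl rose by 0.88 ± 0.18. Ldha, lactate dehydrogenase A, overlapped at 911.7 to 1250.8 against 1117.9 to 1183.4. Of 27 cytosolic ribosomal protein genes 17 rose and 0 fell, with a median of 0.41. That count was 7 with 75th percentile centring, 9 after cyclic loess and 11, 9 and 10 without pool 1, 2 or 3.

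Response genes were mostly lower. In the immediate early and stress list of 24 genes 13 fell and 2 rose, with a median of -0.72. Atf3, a stress-induced factor, fell from 124.1, 191.1 and 234.2 to 35.7, 28.9 and 34.0, and Btg2, an antiproliferative gene, 3.60-fold. Fos lay lower in every pool, at 118.2 to 153.1 against 201.6 to 222.2, and Jun higher, at 436.5 to 538.2 against 245.0 to 292.4, but neither passed in the fit of all 9 arrays (adjusted p = 0.251 and 0.301). Both passed without leukemia 3 (0.00735 and 0.0112) and with the 6 wild type arrays alone. The rise of Egr1 (0.90 ± 0.29) was lost without any 1 wild type array or leukemia 1 (0.75 to 1.01) and under both scalings. Dusp1, a phosphatase that ends MAP kinase signals, fell from 1181.4 to 1532.2 down to 455.9 to 661.0, a call lost without any 1 wild type array (-1.32 to -1.04). Of 24 type I interferon targets 18 fell and 0 rose, with a median of -1.07. Oas2, a sensor of double-stranded RNA, fell from 288.5, 387.2 and 189.4 to background at 25.7 to 34.1. Irf7, which amplifies the interferon response, fell 2.94-fold. Whole marrow array 2 read highest for Oas2, Oas3 and Ifi27l2a. Over the whole interferon list array 1 was highest, with mean log2 intensities of 7.38, 7.27 and 7.11 in whole marrow arrays 1 to 3.

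**Figure D4:**
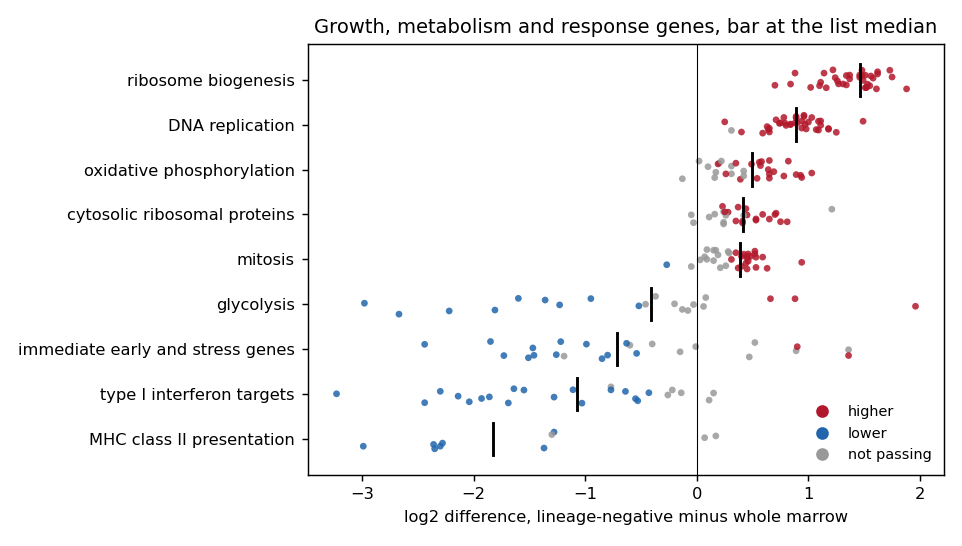
Log2 difference of lineage-negative minus whole marrow on the x axis for the genes of 9 growth, metabolism and response lists, 1 point per gene, coloured by call at an adjusted p of 0.05, with a bar at each list's median. The ribosome biogenesis genes lie between 0.70 and 1.88, and the interferon targets reach -3.23.

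Arrays of 1 group differed in the RNA levels of the lists. Among the whole marrow arrays, array 2 was lowest for early red cell genes, with a mean log2 intensity of 6.70 against 7.37 and 7.72. It was lowest too for mature B cell genes, at 6.56 against 7.77 and 8.08, and highest for monocyte genes, at 8.64 against 8.45 and 8.39. Without that array 19 early red cell genes rose in place of 21, and no single array left out took the count below 18 or above 22. Among the pools, pool 2 was highest for early red cell genes (8.94 against 8.66 and 8.74) and ribosome biogenesis (8.73 against 8.42 and 8.39). Pool 2 was lowest for multipotent progenitor genes (7.85 against 8.32 and 8.18), megakaryocyte genes (7.64 against 8.33 and 8.24), and late neutrophil genes (5.77 against 6.68 and 6.37). Pool 1, with the most Ly6g, also kept the most late neutrophil signal. The median standard deviation over genes was 0.101 on the log2 scale among the pools and 0.127 among the single mice.

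**Figure D5:**
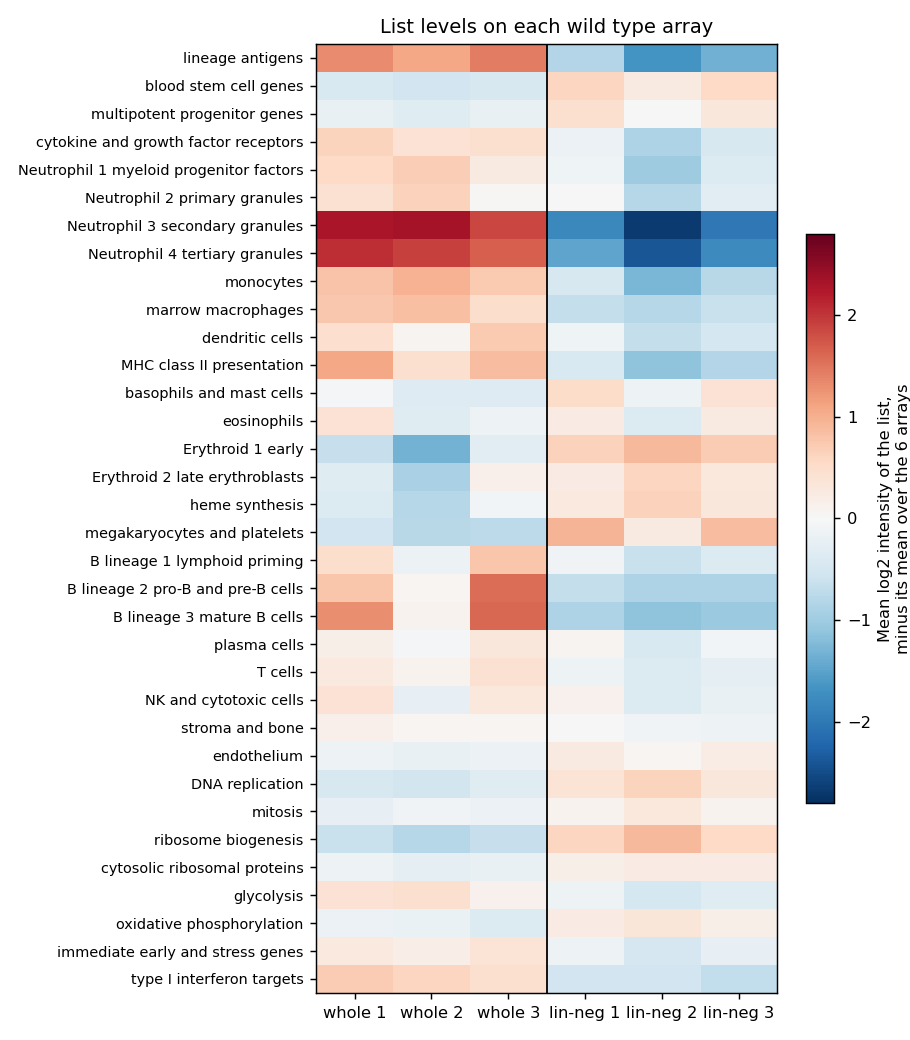
Mean log2 intensity of 34 gene lists on each of the 6 wild type arrays, minus the mean of that list over the 6 arrays, from blue (lower) to red (higher). A line parts the whole marrow arrays from the lineage-negative pools. Whole marrow array 2 is palest for B lineage lists and darkest blue for early red cell genes, and pool 2 is the lowest pool for megakaryocyte genes.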

How the data were processed

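RNA of 9 mouse bone marrow samples was measured on 9 Affymetrix whole-transcript arrays. The authors deposited linear intensity values; the submitters' processing notes name RMA and Partek, with versions and genome build not given in the sources used here. The design assumed log2 values, so the intensities were log2-transformed first, with no further normalization. Of 28853 probe sets 21789 had 1 gene symbol in the platform annotation, and where a gene had several, the brightest on average was kept, giving 19938 genes, of which 19856 matched RefSeq by Entrez identifier. No filter was set on dim genes.

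One limma 3.58.1 model in R 4.3.3 (lmFit, contrasts.fit, eBayes without trend) held 3 group means of 3 arrays each, with 6 residual degrees of freedom and a prior worth 2.62. P-values are two-sided with Benjamini-Hochberg adjustment over all genes and a threshold of 0.05. Values are log2 differences ± SE, folds of group means of log2 values, or intensities of single arrays. "Rose" and "fell" are used of genes that passed. Tested on simulated data for this comparison over 19938 genes, the fit recovered 86% of 100 genes changed by a log2 size of 1 and 99% of 100 changed by 2, with 10 false calls. The simulated noise was independent between genes and only those genes were changed, whereas 34.7% of genes passed in the data. The simulated shares therefore do not carry over to the data. The 3 arrays per group limit the precision. P-values rest on a spread pooled over all 3 groups. It is between single mice for whole marrow and leukemia, and between pools of 3 mice for lineage-negative marrow. The spread of the leukemia arrays thus bears on which genes passed.

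Of 782 symbols in 35 gene lists 710 were measured. The members and lists were chosen with earlier results of these data known. Genes were named mainly from a set of 259, of which the text prints a part: the 12 highest and 12 lowest with non-overlapping arrays (clone names, predicted genes, receptor segments and sex-linked genes left out), the defining genes of each list, its 3 largest changes, up to 3 members that passed against its majority, and sex-linked genes. Single genes outside this rule, such as Slpi, Cd4 and those shown with sequence, were chosen after their values were seen. Promoter windows and letters are from RefSeq on GRCm38.p6. Alternatives are given in the closing section. Plots use Python 3.11.15 and matplotlib 3.10.9.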

Additional observations from a re-analysis of the deposited data

How the results depend on the processing

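Of 197 named genes that passed, 134 passed under every alternative, and 19 of 35 list counts stayed within 1.5 times. No gene called both with the deposited values and under an alternative changed sign. Genes higher numbered 4328, and 1201 with a log2 size of at least 1. Genes lower numbered 2587, 1081 with that size, 3887 with 75th percentile centring and 1643 where dim values were raised to the median intensity. Leaving out 1 array gave 3611 to 4462 higher and 1863 to 2748 lower. With dim values raised, the lower counts were 3 for primary granules, 8 for macrophages, 4 for dendritic cells, 4 for lymphoid priming, 10 for mature B cells, 1 for plasma cells, 7 for T cells, 1 for NK cells and 1 for stroma, and 13 platelet genes were higher. After cyclic loess 10 multipotent progenitor, 6 late erythroblast, 3 mitotic, 9 ribosomal protein and 11 oxidative phosphorylation genes were higher, and 5 NK and 4 stroma genes lower. With 75th percentile centring 5 mitotic and 7 ribosomal protein genes were higher and 9 NK genes lower. Quantile normalization gave 11 mitotic genes higher, 5 NK and 4 stroma genes lower, and eBayes with trend 5 NK genes lower. Among bright genes only, 3 stroma genes were lower. Apart from the settings that left out dim signal, the cause was not tested. Leaving out 1 array gave ranges of 3 to 5 for primary granules, 5 to 9 for dendritic cells, 1 to 3 for eosinophils, 1 to 4 for plasma cells, 1 to 10 for NK cells, 4 to 7 for stroma, 13 to 20 for mitosis and 9 to 20 for ribosomal proteins. Xist ran from -1.431, reversed without whole marrow array 2, to 1.964. Signal near background limits every gene whose lower mean is under 33.4.

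The main fit did not take the replicate numbers to pair the wild type arrays. Deviations of same-numbered arrays correlated at 0.312, -0.009 and -0.009, and those of arrays with different numbers at -0.203 to 0.147. These values cannot decide whether same-numbered arrays share a mouse. With the replicate number as a block, 4346 genes were higher and 2547 lower, with 3 eosinophil genes higher and 5 NK genes lower.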

Other observations

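Gene families were gathered by symbol after values had been seen. All 33 aminoacyl-tRNA synthetase genes, whose enzymes charge tRNAs for the cytosol and the mitochondrion, were higher in lineage-negative marrow by limma, with a median log2 difference of 1.03. The count was 30 with 75th percentile centring and 29 after cyclic loess. Of 77 mitochondrial ribosomal protein genes 69 rose and 1, Mrpl33, fell (median 0.80), and 48 rose after cyclic loess. Of 9 chaperonin genes, whose ring folds actin and tubulin, 8 rose, and the count was also 8 under both scalings. Of 39 proteasome subunit genes 26 rose and 0 fell, and 15 rose after cyclic loess.

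Of 10 Toll-like receptor genes 8 fell and 0 rose, with a median of -2.16, and Tlr13, a sensor of bacterial ribosomal RNA, fell most, by 5.11. Of 8 CD300 genes 7 fell, and of 8 paired and leukocyte immunoglobulin-like receptor genes 7 fell, with medians of -1.97 and -3.52. One CD300 gene, Cd300c, is also in a list above.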
